A study of Mus musculus with 9 samples.

Results

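The genes described here are 59 members of the interferon response and of MHC class I antigen presentation, chosen by symbol from the islet count table. Of these, 58 had a row among the 23329 genes of the table. Ifi27 had no row under that symbol and is not analysed here. Enough counts for a test were present in 54 members. The 4 others, Mx1, Mx2, Nlrc5 and H2-Q4, had between 0 and 34 counts per library.

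Polyadenylated RNA of pancreatic islets from male mice was sequenced in 9 libraries, 4 titled as controls with the genotype Pdx1+/- and 5 titled as mutants with the genotype Pdx1A4. The labels do not explain the Pdx1A4 genotype, and they give no age, strain or treatment that separates the groups. Pdx1 is a homeodomain transcription factor of pancreas and beta cell identity, and both labels name an allele of it, so neither group is labelled wild type. The libraries held between 6092010 and 9163253 counts. Whether each library stands for its own animal is not stated in the labels. The p-values therefore reflect only the variation among these libraries, part of which may be technical. Islet hormone transcripts (insulin, amylin, glucagon, somatostatin and the pancreatic polypeptide family) held 16.9% to 21.0% of all counts in controls and 0.0691% (mutant 2) to 7.99% (mutant 1) in mutants. Transcripts of 20 acinar markers, genes of the exocrine pancreas, held 2.93% to 4.72% in controls and 14.1% to 24% in mutants. In such bulk libraries, fewer cells of a type and less RNA per cell cannot be told apart.

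Interferons are secreted cytokines that act through paired receptor chains, Ifnar1 and Ifnar2 for type I and Ifngr1 and Ifngr2 for type II interferon. The receptors activate the kinases Jak1, Jak2 and Tyk2, which phosphorylate STAT proteins. STAT proteins that join Irf9 bind the interferon-stimulated response element (ISRE), while STAT dimers bind the gamma-activated site (GAS). The genes they induce include antiviral proteins, GTPases that attack vacuoles of intracellular microbes, and the machinery that loads peptides onto MHC class I molecules for inspection by CD8 T cells. In islets, MHC class I on beta cells is known as a feature of autoimmune diabetes.

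Few members differed between the groups beyond the spread of the libraries, and the members that did so were mostly signalling genes. Ifngr2, Irf3, Oasl1 and Bst2 rose in mutants, and Stat3, Stat2, Irf1 and Socs3 fell (edgeR quasi-likelihood test, Benjamini-Hochberg adjusted p under 0.05 over all genes). These are 4 of 54 higher, against 20.6% of all 12402 genes tested, and 4 of 54 lower, against 11.8%. In either direction 14.8% of the members and 32.4% of all genes were called, and the difference between these shares was not tested. The shares of all genes also stand beside the edgeR counts of each role below. An unadjusted edgeR p under 0.05 was found in 11 of the 54 members and in 5761 of all 12402 genes. On simulated counts (12190 genes), the test recovered 13.4% of 97 genes changed 2-fold and 66.3% of 95 genes changed 4-fold. That simulation changed far fewer genes than the 32.4% called here, which makes its adjusted threshold stricter. Its rates may therefore understate what would be called here. Smaller changes may still go uncalled at this number of libraries. The 2 directions of the background depended on scaling: with relative log expression (RLE) scaling 17.4% of all genes were higher and 16.2% lower (33.6% in either direction), and with TMM scaling that leaves out the hormone genes 18.6% and 14.1% (32.7%), while the same 8 members passed under both. DESeq2 called 35.2% of its tested genes and limma-voom 42.8%, and each called all of the 8, with Rsad2 added in DESeq2 and Rsad2, Ifi35 and Erap1 in limma-voom. In RLE scaling the median of all genes lay at -0.06 in place of 0.04.

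Most members with an interferon-stimulated role did not separate the groups. Their level was high in a single mutant library, mutant 4, and near or below the control level in most of the other mutants. The median log2 fold change over the 54 members was 0.32, beside 0.04 over all genes. Without mutant 4 it was -0.28, beside -0.02 over all genes. Mutant 4 was the highest of the 9 libraries for 37 of 54 members (68.5%), where it was the highest for 12.7% of all genes tested. It was at least 2-fold above each other mutant for 21 of 54 members (38.9%), against 1.74% of all genes. This pattern was looked for after the values had been seen, and it is given as a description.

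**Figure D1:**
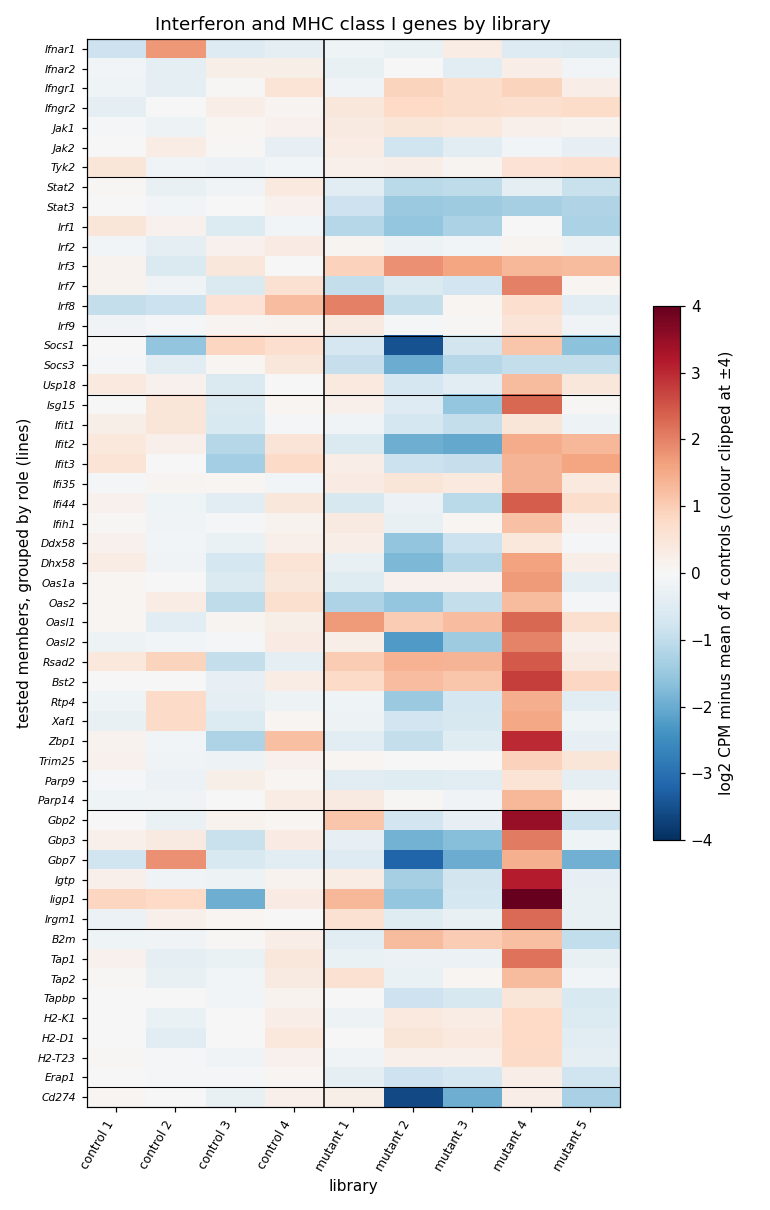
Level of each tested member in each library, as log2 CPM (counts relative to the scaled library size) minus the mean of the 4 controls, with members in rows grouped by role and libraries in columns. Mutant 4 is red over most antiviral, GTPase and presentation genes, while Stat3 and Socs3 are blue and Irf3 is red across all 5 mutants.

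Part of the members have an exact match to an interferon-related motif in the promoter window, and part have none. Only exact matches were counted, so a promoter without a match may still hold a close variant of a motif. Of the sequences below, 6 show how such matches are placed, and those of Irf3 and Tap1 show promoters without a match. RefSeq promoters (GRCm38.p6, 250 bases before to 50 after the gene start) were matched by symbol for 46 members. The ISRE core, a pair of GAAA runs with any 2 bases between them, was found on either strand in 19 of these 46 members (41.3%), beside 3.99% of the 27025 genes with a promoter. The GAS motif TTCNNNGAA was found in 12 members (26.1%, beside 9.55% of genes) and the NF-kB consensus in 9 (19.6%, beside 5.14%). Neither an ISRE core nor a GAS motif was found in 20 of the 46, and none of the 3 motifs in 15, among them Stat3, Irf3, Irf7, Irf9 and Tap1. The members are known interferon-related genes, and a match is a description of letters, not a bound site. Matches of different motifs can overlap. The 250 bases before the start are given 5′ to 3′ on the gene's strand, with matches of any of the 3 motifs in capitals.
Irf1 (chr11:53769764-53770013, plus strand; GAS, then NF-kB consensus): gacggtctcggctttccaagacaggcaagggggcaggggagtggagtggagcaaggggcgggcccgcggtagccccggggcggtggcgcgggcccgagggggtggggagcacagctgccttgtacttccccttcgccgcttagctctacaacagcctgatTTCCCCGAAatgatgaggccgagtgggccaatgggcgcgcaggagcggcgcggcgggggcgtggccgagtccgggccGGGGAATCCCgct
Bst2 (chr8:71537473-71537722, minus strand; NF-kB consensus, GAS and ISRE core overlapping): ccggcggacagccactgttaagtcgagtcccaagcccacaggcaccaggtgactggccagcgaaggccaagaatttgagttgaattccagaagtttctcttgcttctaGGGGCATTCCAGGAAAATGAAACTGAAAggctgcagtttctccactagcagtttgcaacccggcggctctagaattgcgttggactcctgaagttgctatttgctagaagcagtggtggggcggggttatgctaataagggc
Isg15 (chr4:156200819-156201068, minus strand; overlapping ISRE cores): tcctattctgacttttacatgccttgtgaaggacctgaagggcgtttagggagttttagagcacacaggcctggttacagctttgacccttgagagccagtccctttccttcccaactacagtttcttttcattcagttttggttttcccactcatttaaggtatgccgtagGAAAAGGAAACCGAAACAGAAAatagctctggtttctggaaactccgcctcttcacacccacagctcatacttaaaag
Gbp2 (chr3:142620413-142620662, plus strand; ISRE core on the other strand): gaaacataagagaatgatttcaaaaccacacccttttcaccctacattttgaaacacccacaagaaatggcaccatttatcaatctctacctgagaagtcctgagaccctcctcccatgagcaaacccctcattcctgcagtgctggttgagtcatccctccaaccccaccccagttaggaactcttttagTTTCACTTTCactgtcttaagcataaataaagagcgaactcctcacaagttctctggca
Igtp (chr11:58199306-58199555, plus strand; GAS, then ISRE core): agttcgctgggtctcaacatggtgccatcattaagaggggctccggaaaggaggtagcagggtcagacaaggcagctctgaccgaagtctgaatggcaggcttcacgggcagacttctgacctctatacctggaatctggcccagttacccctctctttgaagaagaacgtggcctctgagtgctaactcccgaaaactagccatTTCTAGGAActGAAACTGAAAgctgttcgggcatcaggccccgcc
H2-K1 (chr17:34000348-34000597, minus strand; overlapping NF-kB consensus matches): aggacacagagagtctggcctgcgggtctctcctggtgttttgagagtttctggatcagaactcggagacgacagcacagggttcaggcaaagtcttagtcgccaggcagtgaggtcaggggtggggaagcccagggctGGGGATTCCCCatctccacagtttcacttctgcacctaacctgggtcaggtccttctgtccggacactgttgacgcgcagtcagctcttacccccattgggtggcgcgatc
Irf3 (chr7:44997398-44997647, plus strand; no match): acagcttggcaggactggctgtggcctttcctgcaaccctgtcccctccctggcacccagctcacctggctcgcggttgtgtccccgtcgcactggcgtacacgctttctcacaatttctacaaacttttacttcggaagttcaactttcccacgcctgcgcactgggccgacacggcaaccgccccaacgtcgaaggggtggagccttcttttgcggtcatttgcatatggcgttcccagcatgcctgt
Tap1 (chr17:34187306-34187555, plus strand; no match): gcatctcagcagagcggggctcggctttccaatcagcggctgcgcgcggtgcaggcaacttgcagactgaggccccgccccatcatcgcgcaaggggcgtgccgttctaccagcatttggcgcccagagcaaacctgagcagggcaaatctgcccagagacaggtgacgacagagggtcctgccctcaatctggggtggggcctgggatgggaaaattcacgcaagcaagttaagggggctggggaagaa
Irf1 fell, Bst2 and Irf3 rose, and Isg15, Gbp2, Igtp, Tap1 and H2-K1, none of which passed, were highest in mutant 4, as described below. Irf1 and H2-K1 have further annotated starts in the table.

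Among the receptors and kinases, Ifngr2 alone passed, of 7 tested. Ifngr2, the signalling chain of the interferon gamma receptor (chromosome 16, positions 91547059 to 91564007 of GRCm38), had 57.1, 72.6, 87.5 and 77.8 CPM (counts relative to the scaled library size) in controls 1 to 4. Across mutants 1 to 5 it had 101, 126, 118, 114 and 122 CPM. Every mutant lay above every control, and mutant 4 was among the others. Its rise of 0.66 on the log2 scale (SE 0.15, edgeR adjusted p = 0.0105) was 0.55 with mutants 2 and 3 left out (edgeR adjusted p = 0.0586). No overlap with the higher level in mutants was found in 18.5% of all genes tested.

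The other receptor genes overlapped between the groups. Ifngr1, the ligand-binding chain of the same receptor, averaged 73.7 CPM in the 4 controls (SD 21.6) and 107 CPM in the 5 mutants (SD 30.8), a log2 fold change of 0.54 (edgeR adjusted p = 0.135). Ifnar1, a chain of the type I receptor, stood apart in control 2, at 273 CPM, where the other 8 libraries had 46.2 to 100 CPM. Its log2 fold change of -0.64 (edgeR adjusted p = 0.337) became 0.26 without control 2 (edgeR adjusted p = 0.380). Ifnar2, its partner chain, had 17.0 to 25.9 CPM in controls and 16.4 to 26.3 in mutants. The kinase genes Jak1, Tyk2 and Jak2 had log2 fold changes of 0.32, 0.37 and -0.25 (edgeR adjusted p = 0.0909, 0.286 and 0.451). The type III interferon receptor genes, which are not members, rose: Ifnlr1 (Il28ra in the table) by 2.01 and Il10rb by 1.02 on the log2 scale (edgeR adjusted p = 0.00664 and 0.0162). The call for Il10rb did not hold when control 1, control 2 or mutant 3 was dropped (edgeR adjusted p up to 0.0531).

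The STAT and IRF transcription factors held 4 of the 8 calls. Stat3, which relays interleukin 6 family cytokines and is also activated by interferons (chromosome 11, positions 100886806 to 100939594), had 505, 474, 504 and 577 CPM in controls 1 to 4. Across mutants 1 to 5 it had 292, 182, 193, 205 and 225 CPM. The groups were apart by a wide margin, with mutant 1 nearest to the controls. It fell by 1.23 on the log2 scale (SE 0.17, edgeR adjusted p = 0.00206), and the change lay between -1.36 and -1.18 when any 1 library was left out. No overlap with the lower level in mutants was found in 14.7% of all genes tested.

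Stat2, the partner of Irf9 in type I signalling, had 19.3, 15.4, 16.9 and 24.9 CPM in controls 1 to 4 and 14, 8.76, 9.10, 14.3 and 9.90 across mutants 1 to 5. The groups were apart by little, with control 2 next to mutants 1 and 4. Stat2 fell by 0.77 on the log2 scale (SE 0.22, edgeR adjusted p = 0.0276). The call did not hold when control 1, control 4, mutant 3 or mutant 5 was dropped (edgeR adjusted p up to 0.0777), nor without mutants 2 and 3 together (-0.64, edgeR adjusted p = 0.0960).

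Irf1, a transcription factor induced by interferon gamma and by NF-kB, had 93.6, 75.5, 45.9 and 61.5 CPM in controls 1 to 4 and 29.9, 22.6, 27.8, 65.4 and 27.6 across mutants 1 to 5. Mutant 4 lay above controls 3 and 4, while the other 4 mutants lay below every control. Irf1 fell by 1.0 on the log2 scale (SE 0.33, edgeR adjusted p = 0.0414), and by 1.41 with mutant 4 left out (edgeR adjusted p = 0.00635). Dropping control 1, 2 or 4, or mutant 1, 2, 3 or 5, ended the call (edgeR adjusted p up to 0.118). So did dropping mutants 2 and 3 together (-0.82, edgeR adjusted p = 0.119).

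Irf3, the constitutive factor that is activated by nucleic acid sensors and starts interferon production (chromosome 7, positions 44997648 to 45002848), had 24.3, 14.6, 30.1 and 21.7 CPM in controls 1 to 4 and 41.9, 79.0, 66.6, 55.6 and 52.7 across mutants 1 to 5. Every mutant lay above every control, and the highest levels were in mutants 2 and 3. Irf3 rose by 1.38 on the log2 scale (SE 0.24, edgeR adjusted p = 0.00445), and the change lay between 1.13 and 1.55 when any 1 library was left out. Irf7, the interferon-induced relative that amplifies type I interferon, had 17.3 to 40.6 CPM in controls. It had 107 CPM in mutant 4 and 13.4 to 27.6 in the other mutants. The log2 fold change of Irf7, 0.39 (edgeR adjusted p = 0.643), turned to -0.63 without mutant 4 (edgeR adjusted p = 0.142). Irf9, the DNA-binding subunit of the type I complex, averaged 39.7 CPM in the 4 controls (SD 3.80) and 44.2 CPM in the 5 mutants (SD 8.71; edgeR adjusted p = 0.479).

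**Figure D2:**
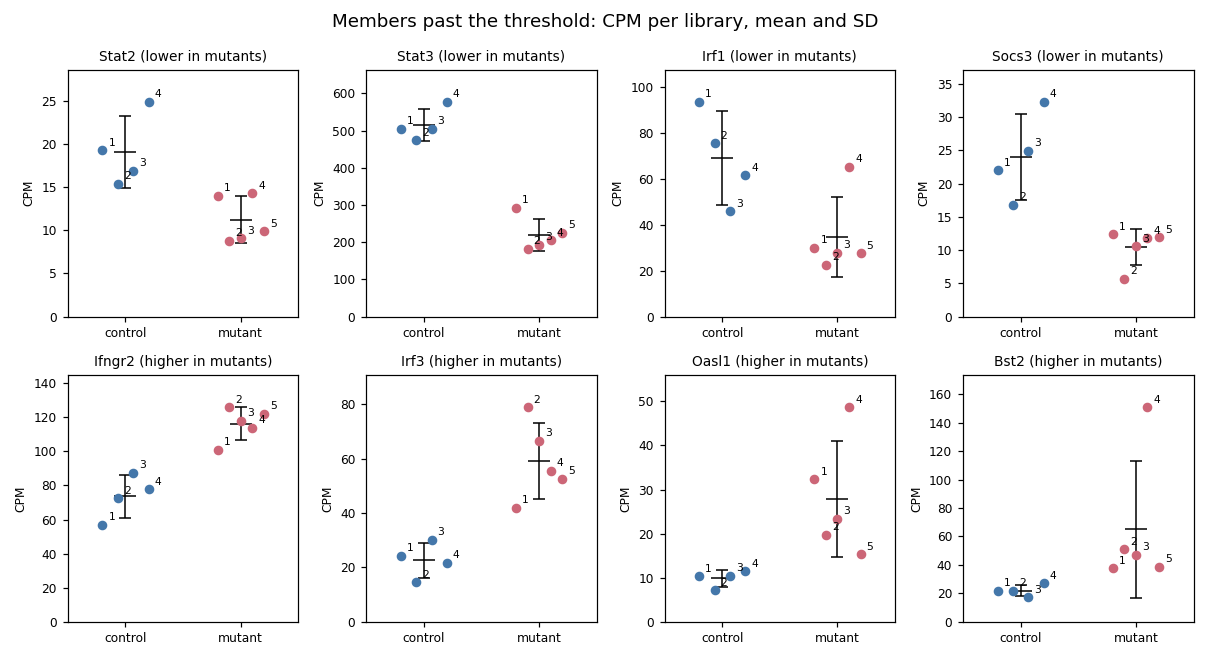
CPM of the 8 members past the threshold, with a point for each library (numbered by replicate) and bars for the mean and SD of the 4 controls and 5 mutants. In 7 of the 8 genes the groups do not overlap, and in Irf1 mutant 4 lies among the controls at 65.4 CPM.

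Of the 3 feedback inhibitors, Socs3 fell. Socs3, an inhibitor of JAK kinases that STAT3 induces, had 22, 16.8, 24.9 and 32.3 CPM in controls 1 to 4 and 12.4, 5.66, 10.6, 11.8 and 11.9 across mutants 1 to 5. All mutants lay below all controls, with mutant 2 the lowest. It fell by 1.20 on the log2 scale (SE 0.26, edgeR adjusted p = 0.00959), and the change lay between -1.43 and -1.02 when any 1 library was left out. Socs1, the inhibitor tied most closely to interferon signalling, had 0 to 41 counts per mutant library and 5 to 43 per control (log2 fold change -0.75, edgeR adjusted p = 0.533). Usp18, which removes Isg15 from proteins and blocks the type I receptor, averaged 36.5 CPM in the 4 controls (SD 9.42) and 46.0 CPM in the 5 mutants (SD 25.2; edgeR adjusted p = 0.510).

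Of 21 tested antiviral effectors and RNA sensors, 2 rose and 0 fell in edgeR, with 3 calls by DESeq2 and 4 by limma-voom. Of all genes, 32.4%, 35.2% and 42.8% were called by these methods. An unadjusted edgeR p under 0.05 was found for 4 of the 21, and for 5761 of all 12402 genes. Bst2, which tethers budding virus particles to the cell surface (chromosome 8, positions 71534255 to 71537472), had 21.9, 21.8, 17.3 and 27.0 CPM in controls 1 to 4. Across mutants 1 to 5 it had 37.5, 51.1, 47.0, 151 and 38.7 CPM. All mutants lay above all controls, and mutant 4 stood far above the other mutants. Bst2 rose by 1.56 on the log2 scale (SE 0.43, edgeR adjusted p = 0.0222), and by 0.93 with mutant 4 left out (edgeR adjusted p = 0.0105). Dropping control 1, 2 or 3 ended the call (edgeR adjusted p up to 0.0601).

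Oasl1, a member of the oligoadenylate synthetase family that limits Irf7 translation, had 10.3, 7.17, 10.5 and 11.5 CPM in controls 1 to 4 and 32.3, 19.7, 23.4, 48.7 and 15.3 across mutants 1 to 5. Every mutant lay above every control. Oasl1 rose by 1.49 on the log2 scale (SE 0.34, edgeR adjusted p = 0.0105), and by 1.14 without mutant 4 (edgeR adjusted p = 0.0188). Oasl1 and Oasl2 are close paralogs that may share reads. Oasl2 did not separate the groups, at 15.4 to 22.1 CPM in controls and 3.50 (mutant 2) to 70.2 (mutant 4) in mutants.

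Ifi35 and Rsad2 missed the threshold narrowly, both at an edgeR adjusted p of 0.0512. Ifi35, an interferon-induced leucine zipper protein, had 32.0 to 37.5 CPM in controls, 88.9 in mutant 4 and 43.3 to 48.3 in the other mutants, so the groups did not overlap. The log2 fold change of Ifi35 was 0.65 over all libraries and 0.35 without mutant 4 (edgeR adjusted p = 0.0496). Rsad2 (viperin), a radical SAM enzyme that makes a chain-terminating nucleotide, had 9.02 to 32.3 CPM in controls and 22.6 to 98.3 in mutants, with mutant 4 the highest. It passed in DESeq2 (log2 fold change 1.25, adjusted p = 0.0287) and in limma-voom (1.41, adjusted p = 0.0258). Rsad2, like Zbp1 and the GTPases given next, was chosen for description after its values were seen.

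Isg15, Ifit1, Ifit3 and Zbp1 overlapped between the groups. Isg15, a ubiquitin-like modifier, had 3.69, 5.12, 2.34 and 3.80 CPM in controls 1 to 4 and 4.24, 2.43, 1.06, 18.9 and 3.75 across mutants 1 to 5. Only mutant 4 lay outside the range of the other libraries by more than a few CPM, and the log2 fold change of 0.70 (edgeR adjusted p = 0.466) became -0.41 without it (edgeR adjusted p = 0.491). Zbp1, a sensor of Z-form nucleic acids that triggers necroptosis, had 33.2 CPM in mutant 4 and 1.52 to 9.39 in the other 8 libraries. Ifit3, which with Ifit1 binds viral RNA ends, was highest in mutants 5 and 4, at 35.9 and 30.7 CPM, against 4.45 to 20.1 in controls. Ifit1 had 16.7 to 36.0 CPM in controls and 13.2 to 36.0 in mutants (log2 fold change -0.27, edgeR adjusted p = 0.513). Over the 21 genes, the median log2 fold change was 0.44 with all libraries and -0.32 without mutant 4, and mutant 4 was the highest library for 19.

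**Figure D3:**
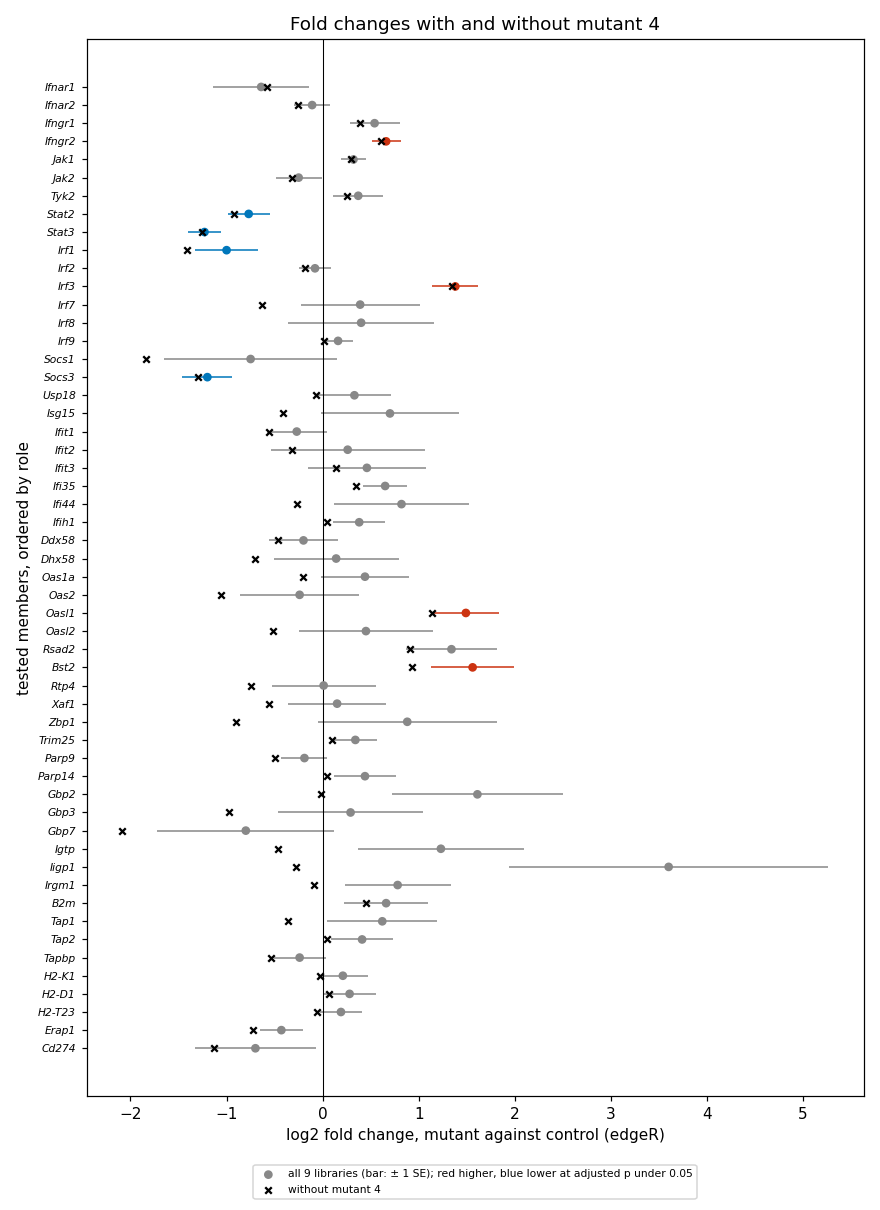
Log2 fold change of each tested member, mutant against control, from edgeR with all 9 libraries (dots with bars of 1 standard error) and without mutant 4 (crosses); Irf8 had too few counts to be tested in the latter. Signalling genes such as Stat3 and Irf3 keep their place, while Iigp1 moves from 3.60 to -0.28 and Tap1 from 0.62 to -0.36.

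The interferon-inducible GTPases showed the widest gap between libraries. Of 6 tested, 0 passed in either direction in edgeR, DESeq2 or limma-voom with all 9 libraries, and 0 had an unadjusted edgeR p under 0.05. Of all genes, 32.4%, 35.2% and 42.8% were called by these methods, and 5761 of 12402 had such an unadjusted p. DESeq2 gave no adjusted p for Iigp1 and Igtp, so its count does not cover them. Iigp1, an immunity-related GTPase that acts on parasite vacuoles (chromosome 18), had 586 CPM in mutant 4, from 4003 counts. It had 14.9, 14.2, 1.87 and 10.2 CPM in controls 1 to 4 and 20.6, 2.56, 4.85 and 6.56 in mutants 1, 2, 3 and 5. Mutant 4 was thus 61.9-fold above the mean of the other 8 libraries, while the remaining mutants overlapped the controls.

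Gbp2, a guanylate-binding protein that lyses such vacuoles, had 349 CPM in mutant 4 and 16.9 to 66.6 in the other libraries, 11.1-fold above their mean. Igtp, another immunity-related GTPase, had 167 CPM there and 7.28 to 23.4 elsewhere, a 10.1-fold difference. Irgm1, a regulator of this GTPase family, had 174 CPM in mutant 4 and 26.0 to 55.6 elsewhere. The log2 fold changes of Iigp1, Gbp2, Igtp and Irgm1 were 3.60, 1.61, 1.23 and 0.78, which became -0.28, -0.02, -0.47 and -0.09 once mutant 4 was left out. With mutants 2 and 3 left out, Iigp1 passed (log2 fold change 4.24, edgeR adjusted p = 0.0477), and with mutant 4 left out instead it did not (-0.28, edgeR adjusted p = 0.782).

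Gbp3 and Gbp7 varied within both groups. Gbp3 had 33.8, 37.3, 15.5 and 36.5 CPM in controls 1 to 4 and 22.8, 7.55, 8.80, 124 and 25.7 across mutants 1 to 5. Gbp7 had 31.7, 199, 36.3 and 41.5 CPM in controls 1 to 4 and 38.5, 5.80, 14, 149 and 14.6 across mutants 1 to 5. Control 2 was the highest library of all for Gbp7, as it was for Ifnar1. Neither gene passed (edgeR adjusted p = 0.781 and 0.519), and these genes have close paralogs in the same cluster of chromosome 3 with which they may share reads.

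**Figure D4:**
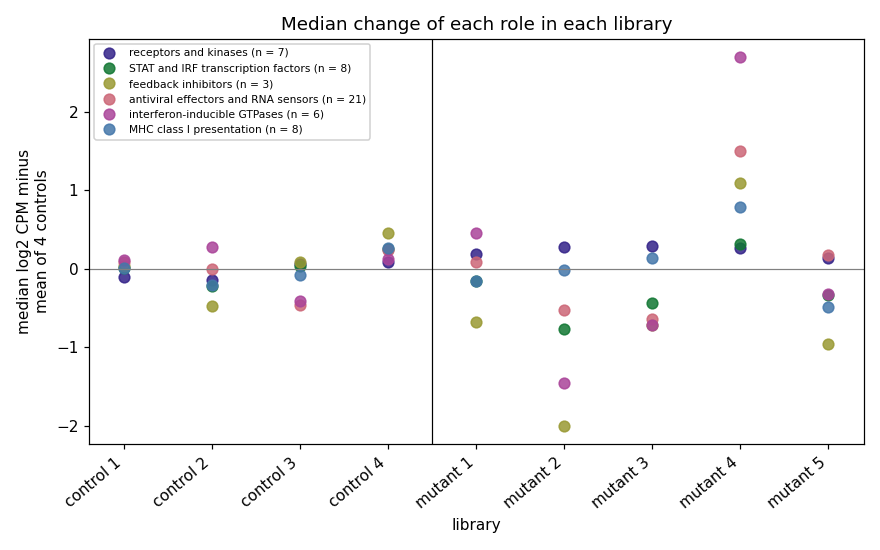
Median over the tested members of each role of log2 CPM minus the mean of the 4 controls, for each library. In mutant 4 the GTPases reach 2.69 and the antiviral genes 1.50, whereas in mutant 2 these medians are -1.46 and -0.53.

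Mutant 2, the library with the lowest hormone share, was the lowest mutant for 27 of 54 members (50%), where it was so for 31.3% of all genes tested. Cd274, which encodes the T cell checkpoint ligand PD-L1 (chromosome 19), had 18.7, 17.6, 14.4 and 20.6 CPM in controls 1 to 4. It had 20.7, 1.21, 4.40, 21.2 and 7.09 CPM across mutants 1 to 5. Mutants 2, 3 and 5 lay below all controls and mutants 1 and 4 just above them. Cd274 had a log2 fold change of -0.70 (edgeR adjusted p = 0.405). The median SD of log2 CPM between mutant libraries was 0.70 over the members and 0.35 over all genes tested. Without mutant 4 these were 0.43 and 0.33, and without mutant 2 they were 0.67 and 0.34. Between controls the median SD was 0.32 for both.

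In the MHC class I presentation list, 0 of 8 tested members passed in edgeR or DESeq2, with 0 at an unadjusted edgeR p under 0.05. Of all genes, 32.4% and 35.2% were called by these methods, and 5761 of 12402 had such an unadjusted p. DESeq2 gave no adjusted p for Tap1, so its count does not cover that gene. With limma-voom, Erap1 was called as lower. B2m, the light chain shared by all class I molecules (chromosome 2), had 543, 544, 627 and 723 CPM in controls 1 to 4 and 447, 1463, 1227, 1383 and 303 across mutants 1 to 5. The mutants fell on both sides of the controls, with mutants 2, 3 and 4 above and mutants 1 and 5 below all of them. B2m had a log2 fold change of 0.66 (SE 0.44, edgeR adjusted p = 0.262). The 3 libraries high in B2m were also those with the highest acinar share, 23.3% to 24%, against 14.9% and 14.1% in mutants 1 and 5, and the part of that share in the B2m level was not tested.

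The heavy chain genes varied less. H2-K1, a classical class I heavy chain, had 594, 489, 594 and 705 CPM in controls 1 to 4 and 516, 772, 721, 1018 and 406 across mutants 1 to 5. H2-D1, the other classical heavy chain of the table, had 1009, 757, 986 and 1335 CPM in controls and 993, 1398, 1319, 1734 and 739 in mutants. Both were highest in mutant 4 and lowest in mutant 5, and their log2 fold changes of 0.21 and 0.28 had standard errors of 0.26 and 0.27 (edgeR adjusted p = 0.560 and 0.445). Class I heavy chain genes are similar enough in sequence to share reads, which leaves these levels uncertain.

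The peptide supply genes did not pass with all libraries. Tap1, a subunit of the peptide transporter into the endoplasmic reticulum, had 13.4, 9.07, 9.72 and 16.1 CPM in controls 1 to 4 and 9.81, 9.84, 10.0, 53.7 and 9.50 across mutants 1 to 5. The other 4 mutants lay within 1 CPM of each other and within the range of the controls, and mutant 4 was 4.91-fold above the mean of the other 8 libraries. Tapbp (tapasin), the chaperone that bridges the transporter and the heavy chain, averaged 493 CPM in the 4 controls (SD 37.9) and 418 CPM in the 5 mutants (SD 171; edgeR adjusted p = 0.506). Erap1, an aminopeptidase that trims peptides, had 124 to 138 CPM in controls, 155 in mutant 4 and 72.7 to 98.9 in the other mutants. Without mutant 4 it passed as lower (log2 fold change -0.72, edgeR adjusted p = 0.0118), as did Parp9 (-0.50, edgeR adjusted p = 0.0331). Nlrc5, the transactivator of class I genes, was not tested, with 3 to 16 counts in 8 libraries and 34 in mutant 4.

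Leaving out mutant 4 changed which members passed: 5 were higher and 6 lower of 53 tested, where 17.3% and 11.9% of all genes were (29.2% in either direction). Ifi35, Erap1 and Parp9 were the members added, and the 8 called with all libraries still passed. Without mutants 2 and 3, 4 were higher and 2 lower, where 10.8% and 9.78% of all genes were.

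Levels of other cell types were set beside the pattern of mutant 4. Of 13 T and NK cell markers in the table, Klrb1c and Ncr1 were at 0 in every library. The list summed to 0.146 CPM in mutant 4, from 1 count, the lowest of the 9 libraries, against 0.234 to 2.12 in controls and up to 5.33 in mutant 1. Ifng and 16 other interferon ligand genes, all 17 of that kind in the list, had 0 counts in every library. A count of 0 allows up to 0.364 CPM in mutant 4 (3 counts of its total, before scaling), which covers counting error only. The macrophage markers without Cd14 summed to 33.5 CPM in mutant 4, against 40.2 to 76.1 in controls and 11.3 to 103 in mutants. Cd14 held most of the full sum in every mutant and in controls 3 and 4, and it was taken out after the values were seen. The full list, in which no marker was at 0 throughout, summed to 80.3 to 465 CPM in controls and 310 to 563 in mutants, with mutant 4 the highest. The B cell markers summed to 1.46 CPM and the dendritic cell markers to 5.71 CPM in mutant 4, within the range of the other mutants, 1.21 to 4.96 and 3.03 to 5.92 CPM. Zbtb46 alone held 4.68 of the 5.71 CPM of the dendritic list, and all of it in mutants 2, 3 and 5. Pax5 of the former and Siglech and Cd209a of the latter were at 0 throughout, and controls had 1.29 to 2.20 and 0.585 to 2.34 CPM. Endothelial markers summed to 93.9 CPM in mutant 4, 8.90 to 111 in the other mutants and 61.0 to 204 in controls, and stellate and fibroblast markers to 33.6, 2.97 to 173 and 57.5 to 119 CPM. Ductal markers summed to 28910 CPM in mutant 4, the highest library, 16686 to 20851 in the other mutants and 4481 to 12596 in controls, and the part of ductal RNA in the result was not tested. The acinar sum of mutant 4, 288010 CPM, lay between those of mutants 2 and 3, 296238 and 286166 CPM, whose GTPase sums were 67.3 and 93.6 CPM against 1549 CPM in mutant 4.

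**Figure D5:**
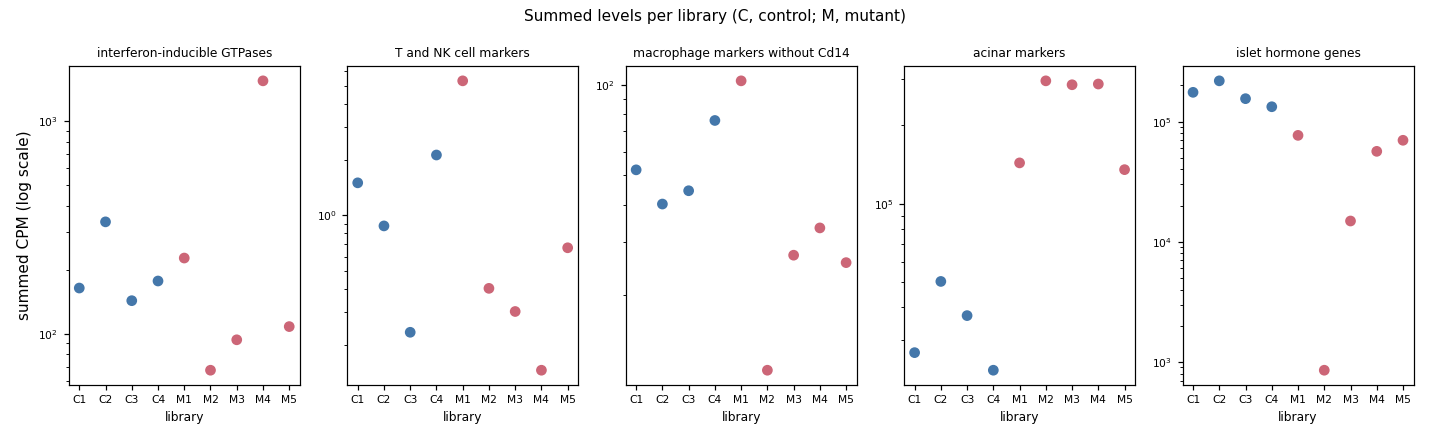
Summed CPM per library, on log axes with a separate scale in each panel, of the 6 interferon-inducible GTPases and of 4 marker lists. The GTPase sum is 1549 CPM in mutant 4 and 67.3 to 336 in the other 8 libraries. For acinar markers mutant 4 is level with mutants 2 and 3. For T and NK cell markers mutant 4 is lowest, but from 1 count, where control 3 and mutant 3 had 2 each, so that rank rests on the floor.

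The calls between groups were also set beside tissue composition. With the acinar marker score (mean log2 CPM) as a covariate, edgeR called 0 of 54 members and 0 of all genes, with 2 members and 343 genes at an unadjusted p under 0.05. With the hormone score as a covariate, Irf3 and Oasl1 were higher and Stat3 lower, 3 of 54 members, where 7.15% of all genes were higher and 1.36% lower (8.51% together). With the macrophage score as a covariate, 7 of the 8 members passed, all but Irf1, where 28.4% of all genes were called. The acinar and hormone shares did not overlap between the groups, so the genotype and the make-up of the tissue cannot be told apart for these calls.

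Further genes of the pathway were read from 5 lists outside the members. Of 94 tested, 13 were higher and 5 lower, where 20.6% and 11.8% of all genes were. The same shares of all genes stand beside the edgeR counts of each further list below. The median log2 fold change of the 94 was 0.03, beside 0.04 over all genes. Among 55 other interferon-stimulated genes 7 rose and 2 fell, where the largest changes by p were in Lgals9, Ifi27l2b and Samhd1. Lgals9, which encodes the lectin galectin 9, averaged 92.9 CPM in the 4 controls (SD 19.3) and 541 CPM in the 5 mutants (SD 216), and rose by 2.54 on the log2 scale (edgeR adjusted p = 0.0015). Ifi27l2b and Samhd1, a nucleotide hydrolase that restricts viruses, rose by 2.97 and 1.75 on the log2 scale (edgeR adjusted p = 0.00246 and 0.00337). Each of the 3 passed whichever library was left out. Ifitm2, Ifitm3, Pml and Gm14446 also rose, and Ccl5 and Isg20 fell; these are named because they complete the count. Ifitm3, which hinders virus entry, had 39.6 to 65.5 CPM in controls and 95.9 to 385 in mutants, a rise of 1.77 on the log2 scale (SE 0.39, edgeR adjusted p = 0.00983).

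Of further interferon-stimulated genes, some were highest in mutant 4 and some in mutant 1. Tgtp1 and Tgtp2, near-identical T cell-specific GTPases that may share reads, had 435 and 113 CPM in mutant 4, and in the other 8 libraries 2.01 to 17.8 and 0.944 to 20.0 CPM. Ifi47, a further GTPase of this kind, had 36.0 CPM in mutant 4 and 0.547 to 4.60 elsewhere. The immunoproteasome gene Psmb8 had 198 CPM in mutant 4 and 36.1 to 79.8 elsewhere. Gbp4, Gbp6, Gbp8, Gbp9 and Gbp10, further guanylate-binding proteins, were highest in mutant 1, with mutant 4 next among the mutants for each. For Gbp4 and Gbp10 mutant 4, at 53.1 and 54.6 CPM, lay above all controls (up to 37.3 and 25.6 CPM). Mutant 1 had 75.7 and 56.2 CPM of these. For Gbp6, Gbp8 and Gbp9 mutant 4 lay within the range of the controls. Gbp6 had 227 CPM in mutant 1, 109 in mutant 4, 87.5 to 144 in controls and 4.58 in mutant 2. The genes of this paragraph were chosen after their values were seen. Mutant 4 was the highest library for 31 of the 55 other interferon-stimulated genes.

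In the list of other MHC class I and immunoproteasome genes, 1 of 20 tested rose and 2 fell. These counts depended on the method: 0 and 5 with RLE scaling, 0 and 7 with DESeq2, 1 and 9 with limma-voom, and 0 and 6 without mutant 4. Of all genes, 17.4%, 17.4%, 24.3% and 17.3% were higher in these 4 settings, and 16.2%, 17.7%, 18.5% and 11.9% lower. Pdia3 and Calr, endoplasmic reticulum chaperones that also fold class I heavy chains, fell by 0.84 and 0.65 on the log2 scale (edgeR adjusted p = 0.0179 and 0.0241), and Psme1, a proteasome activator subunit, rose by 0.66 (edgeR adjusted p = 0.0401). H2-Q2, a class I heavy chain named after its values were seen, had 20.6 to 32.3 CPM in controls and 3.10 to 18.9 in mutants. It missed the threshold (log2 fold change -1.27, edgeR adjusted p = 0.0540) and passed with RLE scaling, DESeq2 and limma-voom (adjusted p = 0.0408, 0.0153 and 0.00919). Calr no longer passed when control 1, control 4 or mutant 3 was dropped, nor Psme1 for 7 of the 9 single libraries (edgeR adjusted p up to 0.0622 and 0.106). In the nucleic acid sensing list 2 of 8 rose and 1 fell: the adaptor genes Mavs and Myd88 by 0.81 and 0.50, and Ticam1, the adaptor of Tlr3, by -1.05 on the log2 scale (edgeR adjusted p = 0.0339, 0.0481 and 0.0287). Dropping single libraries ended the call for Mavs in 6 of 9 cases, for Myd88 in 8 and for Ticam1 in 3 (edgeR adjusted p up to 0.110, 0.159 and 0.0846). Of 9 tested MHC class II genes Rfxank, a subunit of the factor that binds class I and class II promoters, rose by 0.48 (edgeR adjusted p = 0.0277), a call that 7 of the 9 single libraries ended when dropped (edgeR adjusted p up to 0.115). H2-Aa, a class II chain, had a log2 fold change of -1.0 (edgeR adjusted p = 0.0736) and passed without mutant 4 (-1.33, edgeR adjusted p = 0.0354).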

How the data were processed

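Each library has whole-number counts for each gene symbol, which the authors deposited with no scaling. Named without roles in the submitters' processing notes are Bowtie2, STAR, RSEM, HOMER, Cell Ranger, Seurat, Signac, DESeq2, R 4.1.0 and the build mm10. Which tool made these counts, the annotation and the use of strand are not given in the sources used here. Groups and replicate numbers came from the sample titles. Libraries of a group differed by more than sampling noise, so none was counted as a copy.

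Mutants were set against controls over all 9 libraries in edgeR 4.0.16 (R 4.3.3) by the quasi-likelihood test. It was run on the 12402 genes kept by filterByExpr, with TMM scaling, two-sided, with Benjamini-Hochberg adjustment over all genes and a threshold of 0.05. CPM rests on TMM-scaled sizes and its log2 on a prior count of 2. A standard error is the unshrunken log2 fold change divided by the square root of F. Alternatives were RLE scaling, TMM without hormone genes, no filter, a stricter one (at least 1 CPM in 4 libraries), DESeq2 1.42.0, limma-voom with quality weights (limma 3.58.1), a block for the replicate number, leaving out single libraries, leaving out mutants 2 and 3, and marker scores as covariates. The test was checked on simulated data. The members, lists and rule were chosen with earlier results of these data known. The rule describes members past the threshold, members whose groups do not overlap and 23 members fixed for their roles, and up to 3 genes of lowest p per further list. Of the symbols in the lists, 9 were matched by a RefSeq synonym. Positions and promoters are RefSeq's, GRCm38.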

Additional observations from a re-analysis of the deposited data

Results flagged for a closer look

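A library stood far from the rest of its group, by Dixon's ratio on log2 CPM, in 9 of 68 checks (34 members, controls and mutants separately). Chance gives about 1 in 20 for genes not chosen by their values. Here 8 of the 34 members were described after their values were seen, and they hold 3 of the 9 (Zbp1, Gbp3 and Gbp7), so that rate does not apply to the whole. The other 26 members had 6 in 52 checks. Irf3, Ifi35 and Oasl1 are among these 26 through a call or a lack of overlap, and Ifi35 was flagged. The checks also share libraries, so that rate does not strictly apply to the 26 either. Mutant 4 was far above the other mutants in 5 of all 9 flags. These were Irf1 at 6.04 log2 CPM (next highest mutant 4.92), Ifi35 at 6.48 (5.60), Bst2 at 7.24 (5.68), Tap1 at 5.75 (3.36) and Zbp1 at 5.06 (1.74). Iigp1, Gbp2 and Igtp, also highest in mutant 4, did not reach the critical value of that ratio. Socs3 was low in mutant 2, at 2.57 log2 CPM, with mutant 3 next at 3.44. Control 2 was high for Ifnar1, at 8.09 log2 CPM (next 5.96), and for Gbp7, at 7.64 (next 5.38). Gbp3 was low in control 3, at 3.97 (next 5.09).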

How the results depend on the processing

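Of 561 comparisons of a described member's log2 fold change with an alternative, 515 kept direction and side of the threshold, 18 lost a call, 10 gained one and 18 changed sign. The fits with marker scores as covariates are not among the 561. Those fits called 0 (acinar), 3 (hormone) and 7 (macrophage) of the 54 tested members, so calls lost there add to the 18. Stat3, Irf3, Socs3, Oasl1 and Ifngr2 passed whichever library was left out. Members called higher, 4 with all libraries, were 3 to 7 with a library left out, 0 with the acinar score and 2 with the hormone score as covariate. Members called lower, also 4, were 2 to 6 with a library left out, 2 without mutants 2 and 3, 0 with the acinar and 1 with the hormone score. Further pathway genes called higher, 13, were 5 to 14 with a library left out, 8 with RLE scaling, 7 without a filter and 6 without mutants 2 and 3. Those called lower, 5, were 2 to 15 with a library left out, 9 with RLE scaling, 15 with DESeq2 and 20 with limma-voom, where the share of all genes called lower went from 11.8% to 16.2%, 17.7% and 18.5%. The cause was not tested.

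With limma-voom the sign changed for Ifnar1 (0.16), Irf7 (-0.09) and Gbp3 (-0.36). With a library left out it changed for Ifnar1 (-0.90 to 0.26) and Gbp7 without control 2, and without mutant 4 for Irf7, Isg15, Tap1, H2-K1, Gbp2, Gbp3, Igtp, Iigp1, Irgm1 and Zbp1. Over the libraries left out, these ranged over -0.63 to 0.64 (Irf7), -0.41 to 0.90 (Isg15), -0.36 to 0.79 (Tap1), -0.03 to 0.35 (H2-K1), -0.02 to 1.89 (Gbp2), -0.97 to 0.48 (Gbp3), -2.09 to 0.19 (Gbp7), -0.47 to 1.46 (Igtp), -0.28 to 3.90 (Iigp1), -0.09 to 0.97 (Irgm1) and -0.90 to 1.46 (Zbp1). With the replicate number as a block, 4 members were higher and 3 lower (Irf1 was lost, and 13.4% and 6.24% of all genes were called), 7 further pathway genes were higher and 4 lower, and the sign changed for Irf7 (-0.08), Ifit3 (-0.04) and Gbp3 (-0.49). The numbers do not pair the libraries, as deviations of same-numbered libraries correlated at 0.053, -0.022, 0.181 and -0.045 over genes, and control 1 correlated best with mutant 5. DESeq2 gave no adjusted p for Ifnar1, Igtp, Iigp1 and Tap1. Only their direction could be compared there, and they are counted among the 515. Depth limits Isg15, Zbp1, Socs1 and Nlrc5, whose low counts make fold changes uncertain.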
